A study of Mus musculus with 4 samples.

Results

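Heat shock proteins and chaperonins are the protein-folding machinery of the cell, and 84 of the 21926 genes in the deposited count tables encode them or carry their names. The members were taken by symbol: the Hspa, Hspb, Hspd, Hspe, Hsph and Hsp90 genes, the J-protein genes named Dnaja, Dnajb or Dnajc with a number, the genes Cct2 to Cct8, and Tcp1, with pseudogenes left out. They comprise 10 genes of the cytosolic chaperonin CCT, the 2 subunits of the mitochondrial Hsp60-Hsp10 chaperonin, 14 Hsp70 and Hsp110 genes, 3 Hsp90 genes, 7 small heat shock proteins, 45 J-protein genes (4 of class A, 13 of class B and 28 of class C) and 3 genes that share the name but not the family (Hspb11, Hspbp1 and Hspbap1).

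Hsp70 proteins bind exposed hydrophobic stretches of unfolded chains and are driven by ATP. J-proteins hand them their clients and start the hydrolysis, and Hsp110 proteins and Bag proteins release the nucleotide. Hsp90 completes the folding of kinases and receptors, Lck among them in T cells, and the 2 chaperonins enclose a chain in a barrel, CCT acting on actin and tubulin and Hsp60-Hsp10 on proteins imported into mitochondria. Some members are constitutive, whereas others are transcribed on heat or proteotoxic stress through heat shock factors, or on stress in the endoplasmic reticulum (ER).

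The cells were unsorted thymocytes of 2 mice on a C57BL/6 background, both 5 weeks old. The WT mouse carried Eif4g2 flox/flox without Cre, and the Eif4g2 cKO mouse carried CD4-Cre with Eif4g2 flox/flox; no other treatment was given. Eif4g2 encodes a translation initiation factor related to eIF4G1, and the Cd4-driven Cre acts from the CD4+CD8+ double-positive (DP) stage, so DN cells and the thymic stroma are not its targets. With 1 mouse and 1 library per genotype there was no spread between animals, and no test could be made: every interval below is an exact 95% interval that covers counting error only.

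Transcripts were read as a tag near the 3′ end and counted as unique molecular identifiers (UMIs). The WT library held 18355050 UMIs in 6014 barcodes and the Eif4g2 cKO library 18056277 UMIs in 4335 barcodes, with medians of 1732.5 and 2140 UMIs per barcode. The tables share 1055 barcode names, which are running numbers and do not identify a cell. Eif4g2 itself was at 223 CPM in WT against 274 CPM in Eif4g2 cKO (CPM, the UMIs of a gene per 1000000 UMIs). Whether the 3′ tag reads the deleted part of the gene was not examined, so these levels do not check the deletion. Although both mice are labelled female, transcripts of Eif2s3y, Uty and Kdm5d, all Y-linked, summed to 2542 UMIs in the WT library against 1 in the Eif4g2 cKO library. Ddx3y, a Y-linked gene with a close X-linked homologue, did not follow this split, with 1427 UMIs in the WT and 510 in the Eif4g2 cKO library. Sex and genotype therefore cannot be told apart in any comparison of the libraries.

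Clustering on genes other than the members and Eif4g2 left 5904 WT and 4306 Eif4g2 cKO cells of the T lineage. By markers they formed DN-like (CD4−CD8−; 96 and 122 cells), cycling-like (989 and 1322), DP-like (3333 and 2063), early post-selection-like (809 and 600) and mature single-positive (SP)-like (621 and 185) classes. The DP-like class consisted of 2 clusters that the libraries filled unequally: cluster 0 held 90.8% of WT but 8.34% of Eif4g2 cKO cells of the class, and cluster 1 held 9.15% and 91.7%. The cycling-like class was split as well, its cluster 5 holding 38 WT and 733 Eif4g2 cKO cells and its cluster 7 holding 525 and 61, whereas cluster 4 held 426 and 528. Values of a class can thus differ between the libraries through the clusters that compose it, and values within single clusters are given beside several results. The T lineage was also composed unequally. Cycling-like cells gave 7567685 of 17879261 T lineage UMIs in WT and 11500090 of 17981873 in Eif4g2 cKO. Ratios over all T lineage cells therefore mix the shares of the classes with differences within them.

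The 84 members together took 0.866% of the UMIs of WT T lineage cells and 0.909% of those of Eif4g2 cKO cells. Expression was concentrated in a few genes. The 10 members with the most UMIs held 61.1% of all member UMIs: Hsp90ab1 (68352 UMIs over both libraries), Hspa8 (34138), Hsp90aa1 (18034), Hspe1 (15949), Dnajc15 (12234), Dnajc3 (11262), Cct7 (10268), Dnaja1 (9092), Cct5 (8268) and Cct2 (8129). Hsp90ab1, the constitutive cytosolic Hsp90, alone gave 21.9% of the member UMIs in WT cells and 20.8% in Eif4g2 cKO cells. Of the 84 members, 64 reached 50 UMIs over both libraries in T lineage cells, 16 had between 1 and 49, and 4 (Hspb7, Hspb2, Hspb3 and Dnajc22) were not detected.

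**Figure D1:**
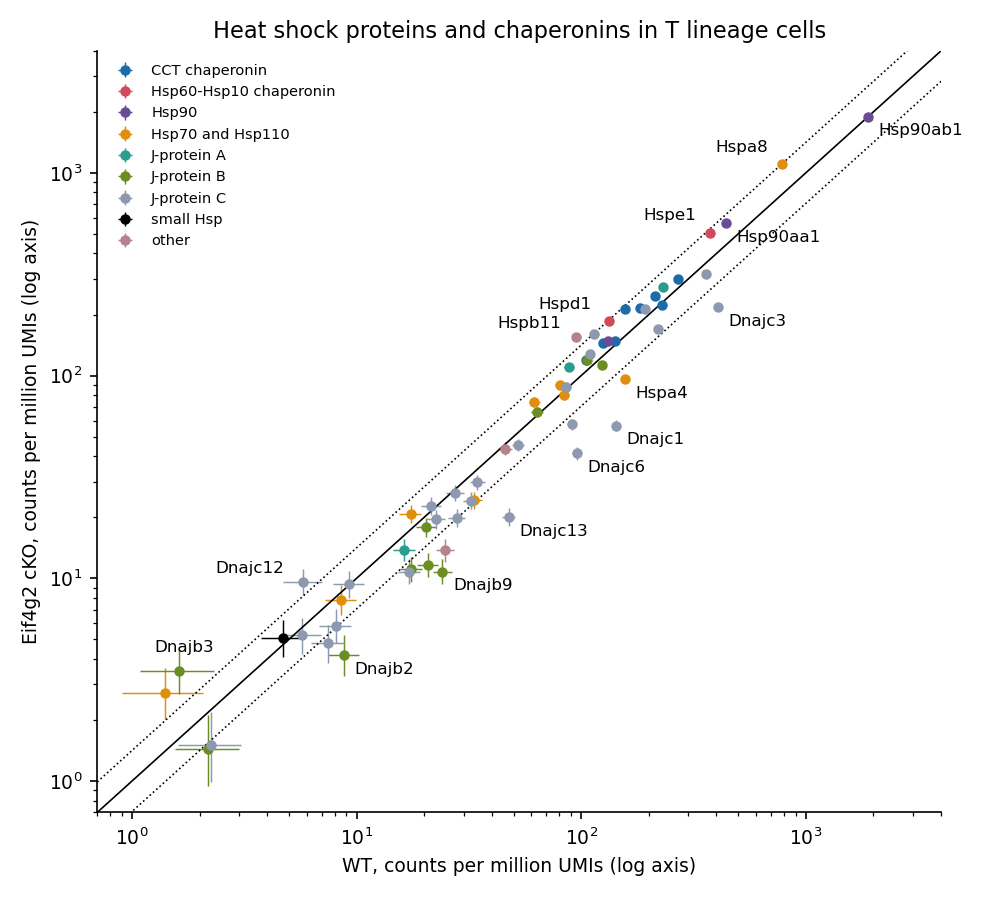
Level of each member with at least 50 UMIs in T lineage cells, in CPM, in WT (x axis) and Eif4g2 cKO (y axis), both on log axes; colours give the family, bars the exact 95% Poisson intervals, the solid line equality and the dotted lines a log2 ratio of 0.5 in either direction. Hsp90ab1 lies on the line, Hspa8, Hspe1 and Hspd1 lie just inside the upper dotted line, Hspb11 lies above it, and Dnajc1, Dnajc6, Dnajc13 and Dnajc3 lie below the lower one.

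The first question was which members differed between Eif4g2 cKO and WT thymocytes. Over all T lineage cells, no chaperonin or Hsp90 gene with at least 50 UMIs passed a log2 ratio of 0.5 in either direction, the Hsp70 gene with the most UMIs (Hspa8) was at 0.49 and the Hsp110 gene Hspa4 at −0.70, and 13 of the 15 members that were lower were J-proteins of classes B and C. Counting a gene as higher or lower when its log2 ratio passed 0.5 with at least 50 UMIs over both libraries, 4 members were higher and 15 lower. Among all 10533 genes with that many UMIs, 5.18% were higher and 41.2% lower, so the members' share of lower genes was below that of the background. The median log2 ratio was −0.04 over the 64 members and −0.35 over all genes.

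The low median over all genes goes with a larger share of ribosomal protein transcripts, which took 24.1% of the UMIs in WT and 30.2% in Eif4g2 cKO T lineage cells. Without ribosomal protein, mitochondrial, haemoglobin and histone genes in the total, the median over all genes moved to −0.22, and 9 members were higher and 13 lower. With ratios centred on the median of all genes, 22 members were higher and 7 lower. The sign of a ratio near zero therefore depends on the scaling. The shares of all genes beyond 0.5 were not counted under either scaling, and the 5.18% and 41.2% given above do not apply there. Ratios below are as counted, without centring, and zero means an equal share of the UMIs.

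The 4 members that were higher were Dnajb3, Hspa2, Dnajc12 and Hspb11. Dnajb3 and Hspa2, named here after their values were seen, had few UMIs: 29 in WT against 63 in Eif4g2 cKO cells, and 25 and 49. Dnajc12, a J-protein known for its binding of aromatic amino acid hydroxylases, had 103 UMIs (5.76 CPM) in WT against 173 (9.62 CPM) in Eif4g2 cKO cells, a log2 ratio of 0.74 (0.38 to 1.11). Hspb11 alone among them was deeply counted and is described below.

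The genes with the lowest ratios were J-proteins with 1 exception. Dnajc1, Dnajc13, Dnajc6, Dnajb9, Dnajb2, Dnajc3 and Dnajb12 lay between −1.33 and −0.83, and Hspbap1 lay at −0.85. By family, none of the 8 CCT genes with at least 50 UMIs passed 0.5 in either direction, nor did the 3 J-proteins of class A, whereas 5 of 10 class B and 8 of 25 class C J-proteins were lower, the latter a smaller share than the 41.2% over all genes and the former near it. The medians were 0.20 for CCT, 0.46 for Hsp60-Hsp10, 0.16 for Hsp70 and Hsp110, 0.16 for Hsp90, 0.25 for class A, −0.39 for class B and −0.21 for class C.

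The 2 subunits of the mitochondrial chaperonin had the highest family median over T lineage cells. Within cycling-like cells the medians were 0.14 for Hsp60-Hsp10, 0.17 for class A J-proteins, −0.02 for CCT and −0.16 for Hsp90. Hspd1 (Hsp60, the barrel) had 2370 UMIs in WT against 3340 in Eif4g2 cKO T lineage cells, 133 and 186 CPM, a log2 ratio of 0.49 (0.41 to 0.56). Hspe1 (Hsp10, its lid) had 6698 and 9109 UMIs, 375 and 507 CPM, a log2 ratio of 0.44 (0.39 to 0.48). The pair had ratios above zero in every class, with DN-like ratios of 0.55 and 0.50, cycling-like ratios of 0.12 and 0.17, early post-selection-like ratios of 0.16 and 0.48 and mature SP-like ratios of 0.32 and 0.17 for Hspd1 and Hspe1. The intervals of Hspd1 in early post-selection-like (−0.15 to 0.46) and of both genes in mature SP-like cells (−0.07 to 0.71 and −0.01 to 0.35) held zero. In DP-like cells both passed 0.5: Hspd1 was at 51.8 CPM in WT against 78.2 CPM in Eif4g2 cKO cells (0.60, 0.35 to 0.85), and Hspe1 at 154 and 228 CPM (0.56, 0.42 to 0.71). Within DP-like clusters 0 and 1, Hspd1 kept ratios of 0.57 and 0.45, while those of Hspe1 were 0.12 and 0.29.

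These 2 genes lie head to head on chromosome 1 (GRCm38, mm10; Hspd1 at chr1:55077835-55088243 on the minus strand and Hspe1 at chr1:55088132-55091307 on the plus strand), and their annotated spans overlap. RefSeq gives 2 starts for Hspd1, of which the first lies 216 bases from that of Hspe1 and the other lies inside Hspe1. The promoter letters are shown because the pair shares 1 stretch of DNA and because heat shock factors are known to bind inverted GAA units there. Promoters from 250 bases before to 50 bases after each RefSeq start were taken from RefSeq (GRCm38.p6), which gave 69 of the 84 members. Hspb2, Cct4, Dnajc18, Hspa8, Dnajc30, Dnajc22, Dnajc2, Dnajc5b, Dnajc12, Dnajc5, Hsp90aa1, Hspa13, Hsp90ab1, Hspa9 and Dnajc11 were not in the table. A heat shock element of 2 units was searched as GAANNTTC or TTCNNGAA, each of which is its own reverse complement and so covers both strands, and the 2 forms can overlap. Of all 32851 promoters 15.1% held either form, and of the genes 17.0%, against 20 of the 69 members (29.0%). Elements of 3 units, in which a GAANNTTC and a TTCNNGAA overlap by sharing their middle unit in either order, were in 0.603% of promoters and in 4 members: Hspd1, Hspe1, Hsph1 and Dnajb6. In the lines below capitals mark 2-unit elements, overlapping ones included, each line reading 5′ to 3′ on the gene's own strand.
Hspe1, chr1:55088054-55088081, plus strand: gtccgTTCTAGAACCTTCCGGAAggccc
Dnaja1, chr4:40722339-40722356, plus strand: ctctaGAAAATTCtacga
Hsph1, chr5:149636357-149636374, minus strand: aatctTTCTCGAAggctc
Cct5, chr15:31601868-31601885, minus strand: gccgaTTCCAGAAgctac
The Hspe1 stretch ends 67 bases before its start and lies inside the promoter window of the first Hspd1 start as well.

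A match is a description of letters, not a bound site. Of the 20 members with a 2-unit element, 12 had at least 50 UMIs in T lineage cells, with a median of 0.15 and none beyond 0.5, against a median of −0.10 over 40 members whose promoters lacked it, 3 higher and 13 lower. In DP-like cells 3 of 11 with the element were higher (Hspd1, Hspe1 and Dnaja1) and none lower, with a median of −0.07, against 3 higher and 8 lower of 36 without it and a median of 0.11. Of all genes, 5.18% were higher and 41.2% lower in T lineage cells, and 8.29% and 29.8% in DP-like cells. Hspe1 did not pass 0.5 within either DP-like cluster.

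The 8 deeply counted subunits of CCT, the cytosolic chaperonin of actin and tubulin, did not pass 0.5 in T lineage cells but differed among themselves beyond counting error. They had log2 ratios in T lineage cells of 0.23 (Tcp1), −0.03 (Cct2), 0.07 (Cct3), 0.21 (Cct4), 0.22 (Cct5), 0.19 (Cct6a), 0.15 (Cct7) and 0.45 (Cct8). Cct8 had the highest ratio of the complex, with 2801 UMIs (157 CPM) in WT against 3840 (214 CPM) in Eif4g2 cKO cells, and its ratio was 0.50 (0.33 to 0.68) in DP-like and 0.61 (0.31 to 0.91) in mature SP-like cells. In DP-like cells 7 of the 8 subunits were above zero, from 0.22 to 0.50, and Cct2 was at −0.08, with a median of 0.34. Within DP-like clusters 0 and 1 several subunits were nearer to zero or below it: Cct4 was at −0.02 and 0.02, Cct7 at 0.06 and −0.15, Tcp1 at 0.24 and −0.16, Cct2 at −0.65 and −0.32, and Cct8 at 0.32 and 0.63. In cycling-like cells the ratios ran from −0.22 (Cct3) to 0.20 (Cct8). The testis paralogue Cct6b had 18 UMIs in 15 WT cells and 1 in 1 Eif4g2 cKO cell, and Cct8l1 had 1 UMI in all.

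Among cytosolic Hsp70 genes, Hspa8 and Hspa4 went in opposite directions. Hspa8, the constitutive Hsc70 (chr9:40800984-40810087), had 14030 UMIs (785 CPM) in WT against 19845 (1104 CPM) in Eif4g2 cKO T lineage cells, a log2 ratio of 0.49 (0.46 to 0.52). By class its ratio was 0.54 (0.46 to 0.62) in DP-like, 0.40 in cycling-like, 0.26 in early post-selection-like, 0.09 in mature SP-like and −0.01 in DN-like cells. The interval for mature SP-like cells (−0.04 to 0.22) and that for DN-like cells (−0.16 to 0.13) held zero. With the 5 classes given equal weight the ratio over T lineage cells was 0.22, and within DP-like clusters 0 and 1 it was 0.35 and 0.62.

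Hspa4, an Hsp110 protein that releases nucleotide from Hsp70, was singled out after its values were seen, because its ratio was below zero with an interval that left out zero in every class. It had 2788 UMIs (156 CPM) in WT against 1732 (96.3 CPM) in Eif4g2 cKO T lineage cells, a log2 ratio of −0.70 (−0.78 to −0.61), with −0.96 in DN-like, −0.56 in cycling-like, −0.48 in DP-like, −0.99 in early post-selection-like and −1.10 in mature SP-like cells. Its relative Hsph1, which is heat-inducible, had 311 and 374 UMIs and a ratio of 0.26 (0.04 to 0.48). Over T lineage cells Hspa4 thus stood apart from Hsph1, whose interval did not reach it. The same held in cycling-like (Hsph1 at 0.11, −0.16 to 0.39) and early post-selection-like cells (0.21, −0.47 to 0.88). In DP-like cells Hsph1 was at −0.09 (−0.89 to 0.67), an interval that held the ratio of Hspa4. With fewer than 50 UMIs, Hsph1 was at −1.28 (−2.98 to 0.06) in mature SP-like and 0.63 (−0.66 to 2.05) in DN-like cells. Hspa4l, of the same family group, went the same way as Hspa4, with 596 and 437 UMIs and a ratio of −0.46 (−0.64 to −0.28). The ratio of Hspa4l was −0.45 (−0.80 to −0.12) in DP-like but −0.07 (−0.39 to 0.26) in cycling-like cells.

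The classical stress-inducible Hsp70 genes were almost silent. Hspa1a had 36 UMIs in 19 of 5904 WT cells and 3 UMIs in 2 of 4306 Eif4g2 cKO cells. Most of the WT molecules were in cycling-like cells, where 11 of 989 cells held 24 UMIs and 1 cell held 7 of them, while 0 UMIs were seen in 1322 Eif4g2 cKO cells, which allows up to 0.261 CPM against 3.17 CPM in WT. Hspa1b, its near copy, had 6 UMIs in WT against 4 in Eif4g2 cKO cells, and the small heat shock protein Hspb1 had 1 and 0. The promoters of Hspa1a and Hspa1b match at 296 of 300 bases, but no 50-base word in the last 500 bases of either gene was shared with another. Of a list of 12 heat-inducible members and their constitutive counterparts, 9 had at least 50 UMIs, none passed 0.5 in T lineage cells, and their median was 0.26. In DP-like cells 4 of the 9 were higher (Hspd1, Hspe1, Dnaja1 and Hspa8) and none lower, against 8.29% and 29.8% of all genes, with a median of 0.41. Of these Hspe1 was below 0.5 within either DP-like cluster, and Hspd1, Dnaja1 and Hspa8 were below it in 1 of the clusters. Immediate early genes, which rise when tissue is dissociated, summed to 1175 CPM in WT against 980.0 CPM in Eif4g2 cKO T lineage cells but to 1642.5 and 1866 CPM in DP-like cells, and their part in these values was not tested.

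The Hsp90 genes were the most abundant and differed by class. Hsp90ab1 had 33922 UMIs (1897 CPM) in WT against 34048 (1894 CPM) in Eif4g2 cKO T lineage cells, a log2 ratio of −0.00 (−0.02 to 0.02). By class it was lower in DN-like (−0.37, −0.48 to −0.27) and cycling-like cells (−0.31, −0.34 to −0.29) and slightly higher in DP-like cells (0.19, 0.12 to 0.25). Its level was 2755 and 2217 CPM in cycling-like cells against 864 and 983 CPM in DP-like cells. Cycling-like cells gave a larger share of the Eif4g2 cKO than of the WT UMIs. With equal weight for the 5 classes the ratio of Hsp90ab1 over T lineage cells was −0.18. Hsp90aa1, the inducible isoform, had 7856 UMIs (439 CPM) in WT against 10120 (563 CPM) in Eif4g2 cKO cells, a ratio of 0.36 (0.31 to 0.40), which was 0.41 in DP-like and 0.53 in early post-selection-like but −0.08 in cycling-like cells. With the 5 classes weighted equally its ratio over T lineage cells was 0.09.

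The named cytosolic J-proteins that serve Hspa8 lay on either side of zero. Dnaja1 had 4120 and 4920 UMIs and a log2 ratio of 0.25 (0.19 to 0.31) in T lineage cells, and in DP-like cells it was at 219 CPM in WT against 326 CPM in Eif4g2 cKO cells (0.58, 0.46 to 0.70), with 0.42 and 0.95 in clusters 0 and 1. Dnajb1, the main class B partner and a heat shock gene, had 1897 and 2148 UMIs and a ratio of 0.17 (0.08 to 0.26). Dnajb4 was at −0.19 (−0.41 to 0.03). None of the 3 passed 0.5 over all T lineage cells.

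In the ER, the Hsp70 and Hsp90 chaperones and their J-proteins lay on different sides of zero. Hspa5 (BiP) had 1437 UMIs in WT against 1612 in Eif4g2 cKO T lineage cells, a log2 ratio of 0.16 (0.05 to 0.26), and Hsp90b1 (Grp94) had 2354 and 2652, a ratio of 0.16 (0.08 to 0.24). In DP-like cells Hspa5 was at 46.6 and 72.0 CPM (0.63, 0.36 to 0.89) and Hsp90b1 at 67.2 and 90.4 CPM (0.43, 0.20 to 0.65). Within DP-like clusters 0 and 1 the ratios were 0.13 and 0.37 for Hspa5 and 0.78 and 0.24 for Hsp90b1. Hspa5 passed 0.5 in mature SP-like cells too, at 0.52 (0.20 to 0.83).

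Of the named J-proteins of the ER lumen and membrane, Dnajc1, Dnajc3, Dnajb9 and Dnajb12 were lower, in a T lineage in which 41.2% of all genes were, while Dnajc10 did not pass 0.5. Dnajb11 (ERdj3) had 1135 and 1195 UMIs and a ratio of 0.07 (−0.05 to 0.18). Dnajc3 (P58IPK, an inhibitor of the kinase PERK) had 7252 UMIs (406 CPM) in WT against 3914 (218 CPM) in Eif4g2 cKO cells, a ratio of −0.90 (−0.95 to −0.84), with −1.08 in cycling-like and −0.44 in DP-like cells. Dnajb9 (ERdj4) had 431 and 194 UMIs, a ratio of −1.16 (−1.41 to −0.91), and in cycling-like cells it was at 15.7 CPM in WT against 5.57 CPM in Eif4g2 cKO. Dnajc1 (ERdj1, a membrane protein that binds ribosomes; chr2:18195654-18392830) had 2551 UMIs (143 CPM) in WT against 1018 (56.6 CPM) in Eif4g2 cKO cells, a ratio of −1.33 (−1.44 to −1.23). Dnajc10 (ERdj5, a disulphide reductase) was at −0.48 (−0.68 to −0.29), and Dnajb12, which acts in ER-associated degradation, at −0.83 (−1.08 to −0.58).

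The contrast within the ER group is shown with promoter letters because 3 of its members carry the ER stress response element, whose CCAAT and CCACG parts are known to be read by NF-Y and ATF6. The element was searched as CCAAT and CCACG with 9 bases between them, on both strands, and was in 0.119% of all promoters, 39 of 32851, and in Hspa5, Hsp90b1 and Dnajc3 among the 69 members. Capitals mark the element, shown for Hspa5 and Hsp90b1. That of Dnajc3 lies within chr14:118937802-118937870 on the plus strand and is not printed.
Hspa5, chr2:34772020-34772048, plus strand: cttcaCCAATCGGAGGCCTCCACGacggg
Hsp90b1, chr10:86705627-86705656, minus strand: CCAATCGCAAGGAGCCACGcttcgggcatc
The 3 genes with this element had ratios of 0.16, 0.16 and −0.90 in T lineage cells and of 0.63, 0.43 and −0.44 in DP-like cells, so genes that hold the same letters lay on either side of zero.

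Some other ER folding genes were higher with Hspa5 in DP-like cells. Of the ER folding list, 16 of 17 gene identifiers had at least 50 UMIs there, of which 5 were higher, none lower and 11 between the thresholds, against 8.29% higher and 29.8% lower of all genes. The list ran from −0.43 to 0.84 with a median of 0.29. Among these were Ppib, a prolyl isomerase (0.84, 0.73 to 0.94), Sdf2l1 (0.81, 0.27 to 1.35) and Pdia6, a disulphide isomerase (0.62, 0.38 to 0.85). Hyou1, the ER member of the Hsp110 type that exchanges nucleotide on Hspa5, had 76 UMIs in WT against 155 in Eif4g2 cKO DP-like cells (1.67, 1.27 to 2.09), while Sil1, the other exchange factor of Hspa5, was at −0.98 (−1.41 to −0.58). Over all T lineage cells 1 gene of the ER list was higher and 1 lower of 16, with a median of 0.13.

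The other named mitochondrial members did not pass 0.5 over T lineage cells. Hspa9 (mortalin, the Hsp70 of the matrix) had 1107 UMIs in WT against 1330 in Eif4g2 cKO T lineage cells, a log2 ratio of 0.26 (0.14 to 0.37), but −0.14 (−0.44 to 0.15) in DP-like cells, with −0.81 and 0.23 in clusters 0 and 1. Its J-proteins were at −0.23 (Dnaja3), −0.18 (Dnajc15) and 0.23 (Dnajc19, a part of the import motor). Of the list of mitochondrial folding factors and proteases, none of 10 passed 0.5 in T lineage cells, and the median was −0.03. In DP-like cells none of 10 was higher and 2 were lower, and in mature SP-like cells none of 9 was higher and 2 were lower. Of all genes, 5.18% were higher and 41.2% lower in T lineage cells, 8.29% and 29.8% in DP-like cells, and 8.96% and 35.6% in mature SP-like cells.

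The J-proteins with the longest genes, Dnajc1, Dnajc6 and Dnajc13, had low ratios in most classes. Dnajc13 (RME-8, of endosomes; chr9:104151282-104262930) had 849 UMIs (47.5 CPM) in WT against 361 (20.1 CPM) in Eif4g2 cKO T lineage cells, a log2 ratio of −1.24 (−1.42 to −1.06). Dnajc6 (auxilin, which uncoats clathrin vesicles; chr4:101496648-101642799) had 1704 (95.3 CPM) and 744 (41.4 CPM), a ratio of −1.20 (−1.33 to −1.08). Along with Dnajc1 and Dnajb12 they were the members below −0.5 in the DP-like, early post-selection-like and mature SP-like classes alike, although Dnajc6 and Dnajb12 rested on 69 and 57 UMIs in mature SP-like cells. The intervals of Dnajc6 in mature SP-like (−1.98 to 0.13) and of Dnajb12 in early post-selection-like cells (−1.60 to 0.12) held zero. In DN-like cells, which precede the stage at which CD4-Cre acts, Dnajc1 was at −1.06 (−1.70 to −0.43), Dnajc6 at −1.35 (−1.94 to −0.78) and Hspa4 at −0.96 (−1.40 to −0.53).

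The DP-like ratios of these genes were smaller within single clusters. Dnajc1 was at −0.94 over DP-like cells but at −0.14 in cluster 0 and −0.39 in cluster 1, Dnajc13 at −0.97 but at −0.38 and −0.83, and Dnajc6 at −0.77 but at −0.30 and 0.23, and Dnajb12 at −0.68 but at −0.44 and −0.21. The DP-like ratio of each was thus farther from zero than its ratio in either cluster. Dnajc9, a J-protein that also chaperones histones H3 and H4, had the opposite sign, with 2047 and 2882 UMIs and a ratio of 0.49 (0.40 to 0.57) that passed 0.5 in DN-like, early post-selection-like and mature SP-like cells. Dnajb2, known for binding ubiquitin chains, had 157 and 75 UMIs (−1.07, −1.49 to −0.67), and 0.36 (−0.50 to 1.21) in DP-like cells. Hspbap1, a member by name, had 442 and 247 UMIs (−0.85, −1.08 to −0.62).

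Hspb11 was the 1 member past 0.5 on the higher side in each of the 5 classes. It encodes IFT25, a component of the intraflagellar transport complex, which carries the name of a small heat shock protein (chr4:107253593-107279938). In T lineage cells it had 1701 UMIs (95.1 CPM) in WT against 2792 (155 CPM) in Eif4g2 cKO cells, a log2 ratio of 0.71 (0.62 to 0.79). Its ratios were 1.02 (0.10 to 2.01) in DN-like, 0.66 in cycling-like, 0.80 in DP-like, 0.79 in early post-selection-like and 0.67 (0.25 to 1.08) in mature SP-like cells, and 0.30 and 0.93 in DP-like clusters 0 and 1. Of the 50-base words in its last 500 bases 9.23% were shared with other genes. The true small heat shock proteins were near absent, Hspb6 alone reaching 50 UMIs, with 84 in WT against 91 in Eif4g2 cKO cells.

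**Figure D2:**
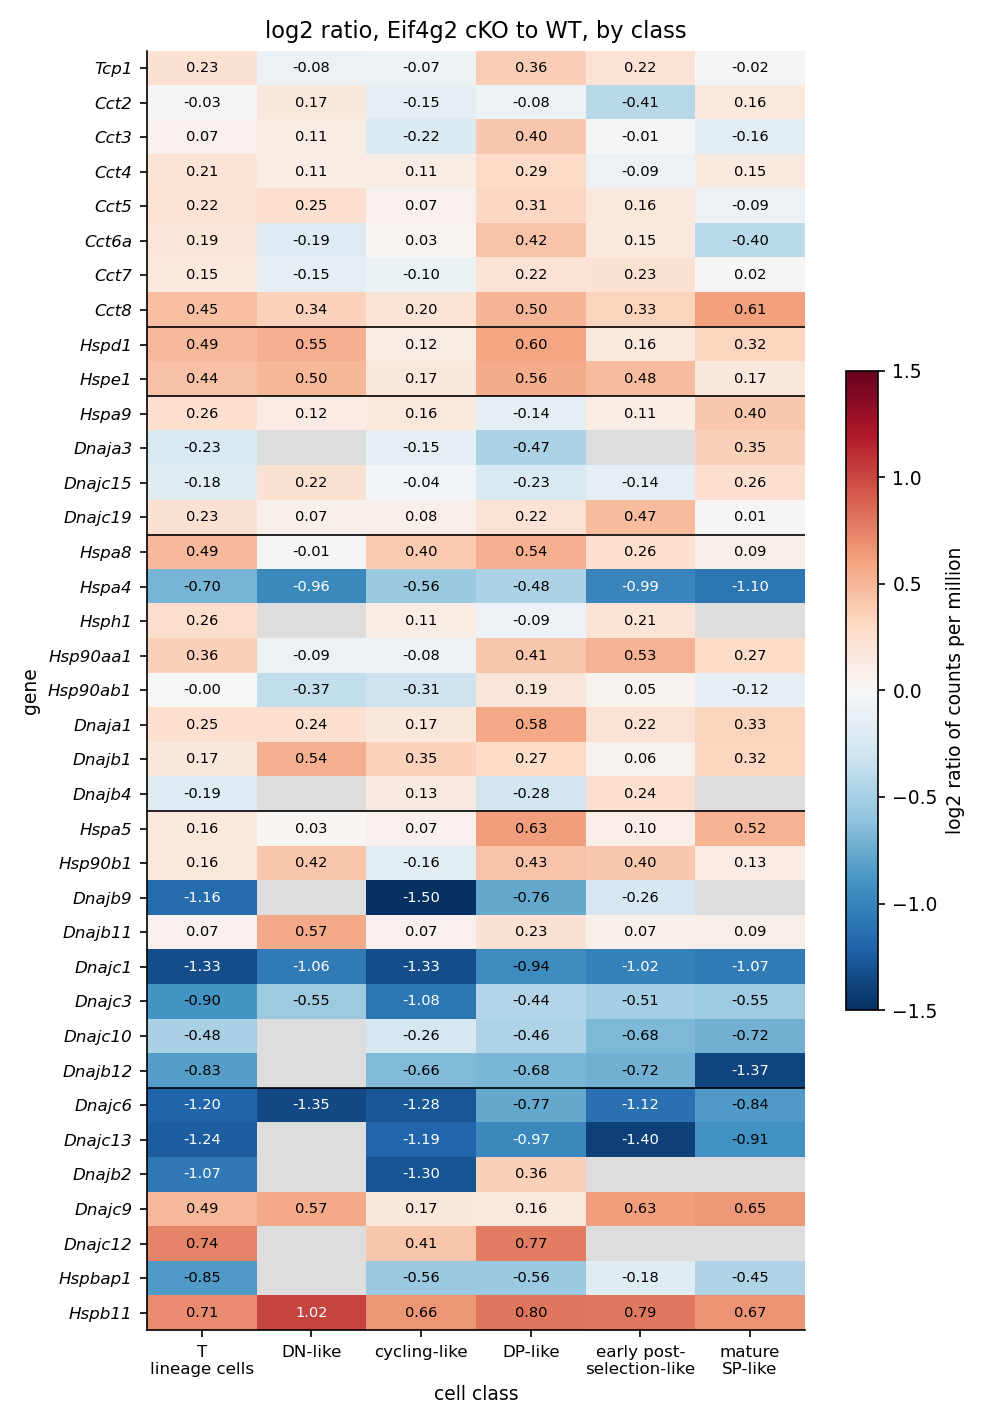
Log2 ratio of CPM, Eif4g2 cKO to WT, for the named members (rows, grouped as chaperonins, mitochondrial, cytosolic, ER and other members) in T lineage cells and in the 5 classes (columns); grey marks fewer than 50 UMIs over both libraries. Hspd1, Hspe1 and Hspb11 are positive in each column, Hspa4, Dnajc1, Dnajc3 and Dnajc6 are negative in each, and Hsp90ab1 is −0.37 in DN-like and 0.19 in DP-like cells.

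The same count within classes showed how the members lay against all genes at each stage. In DP-like cells 8 of 59 members were higher and 9 lower, against 8.29% and 29.8% of 8843 genes, with medians of 0.11 and −0.18. The 8 were Hspb11, Dnajc12, Hspa5, Hspd1, Dnaja1, Hspe1, Hspa8 and Cct8. By the cluster ratios given above, Hspa5 and Hspe1 passed the threshold in neither DP-like cluster. Hspb11, Hspd1, Dnaja1, Hspa8 and Cct8 passed it in a single cluster only. The unequal filling of these clusters may thus enter the count. Of the 9 that were lower, 6 were class C J-proteins, out of 24 of that class with at least 50 UMIs.

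In DN-like cells 7 of 36 members were higher and 6 lower, with 10.1% and 26.7% of 3531 genes and medians of 0.05 and −0.10. Cycling-like cells had 3 higher (Dnajb3, Hspb11 and Dnajc25) and 14 lower of 61, with 3.18% and 35% of 9394 genes and medians of −0.10 and −0.27. Within cycling-like cluster 4, which both libraries filled, 0 members were higher and 8 lower. The share of all genes was not counted within this cluster, and the percentages just given are those of the whole class. Early post-selection-like cells had 3 higher (Hspb11, Dnajc9 and Hsp90aa1) and 8 lower of 51, with 7.38% and 35.9% of 6873 genes and medians of 0.06 and −0.26. In mature SP-like cells 4 were higher (Hspb11, Dnajc9, Cct8 and Hspa5) and 12 lower of 48, with 8.96% and 35.6% of 6515 genes and medians of −0.02 and −0.23. In all classes the members' share of lower genes was thus below that of all genes, and 9 of the 12 lower members of mature SP-like cells were class C J-proteins, out of 19 of that class with at least 50 UMIs. Centring the ratios changed the split of higher against lower members to 9 and 4 in DN-like, 8 and 8 in cycling-like, 15 and 6 in DP-like, 12 and 5 in early post-selection-like and 12 and 8 in mature SP-like cells. The shares of all genes were not counted after centring, so the percentages above do not apply to these splits.

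Genes that work with the members were counted from fixed lists, against 5.18% higher and 41.2% lower of all genes in T lineage cells. Of the Hsp90 and Hsp70 co-chaperones, 20 of 21 had at least 50 UMIs in T lineage cells; none was higher and 4 were lower, with a median of −0.19. The central adaptor Stip1 (Hop) was level, with 8402 UMIs in WT against 8207 in Eif4g2 cKO cells (−0.04, −0.09 to 0.00), whereas Cdc37l1 was at −1.38 (−1.54 to −1.22) and the myosin chaperone Unc45a at −0.92 (−1.13 to −0.71). Of 10 exchange factors 1 was higher (Hyou1, 0.92) and 2 lower (Sil1, −1.02, and Bag3, −0.53 on 61 UMIs). Of 17 prefoldin subunits and CCT partners 2 were higher, Pfdn4 (0.80) and the tubulin cofactor Tbca (0.86), and 2 lower, the tubulin cofactors Tbcd (−0.98) and Tbce (−0.78), with a median of 0.17. Hsf1, the main heat shock factor, had 742 and 629 UMIs (−0.25, −0.40 to −0.09), and of 4 genes of its list 1 was lower, Hsf2 (−0.54).

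Some growth genes were higher as well. Of 15 genes of ribosome biogenesis and growth 5 were higher and 1 lower in T lineage cells, against 5.18% and 41.2% of all genes, with a median of 0.42, and they summed to 4580 CPM in WT against 6004 CPM in Eif4g2 cKO cells. In DP-like cells 4 of 14 were higher and 1 lower, against 8.29% and 29.8% of all genes, with a median of 0.28, Npm1 being at 0.78 and Ran at 0.88. In the other classes the median of the list was 0.20 in DN-like, 0.16 in cycling-like, 0.02 in early post-selection-like and −0.06 in mature SP-like cells. Within cycling-like cells, which gave a larger share of the Eif4g2 cKO UMIs, the genes summed to 6644 CPM in WT against 7315 CPM in Eif4g2 cKO. The part of growth genes in the chaperonin ratios was not tested.

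The long span of the 3 lowest J-proteins was followed over all members. Among all genes, the median log2 ratio in T lineage cells was 0.02 for spans under 10 kb, −0.17 from 10 to 25 kb, −0.42 from 25 to 50 kb, −0.70 from 50 to 100 kb and −1.05 above 100 kb. The members had medians of 0.13 (16 genes), 0.15 (21), −0.39 (18), −0.21 (6) and −1.24 (3) in the same bins. The 3 members above 100 kb were Dnajc13 (111.65 kb), Dnajc6 (146.15 kb) and Dnajc1 (197.18 kb). The CCT genes, with a median span of 13.0 kb, and the class C J-proteins, with 30.7 kb, differ in this respect as well as in function.

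Span did not order every member. Dnajb9 (4.77 kb), Dnajb2 (9.29 kb) and Dnajb12 (19.7 kb) were short and low, at −1.16, −1.07 and −0.83. Against these, Dnajb6 (82.4 kb) was at −0.14 (−0.23 to −0.05) and Cct8, on 12.5 kb, at 0.45. The 15 lower members had a median span of 37.3 kb, the 45 between the thresholds 18.2 kb, the 4 higher 14.6 kb, and all genes 24.5 kb. The part of span in the ratios was not tested.

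**Figure D3:**
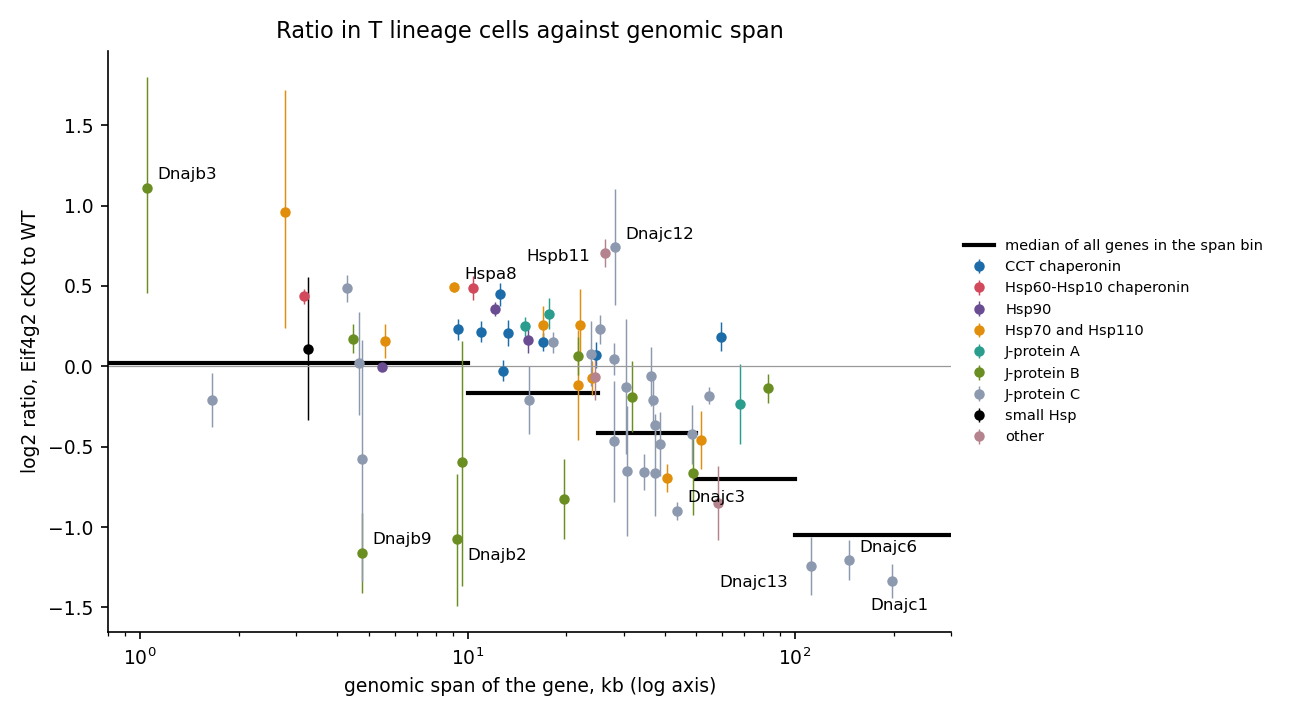
Log2 ratio of Eif4g2 cKO to WT in T lineage cells (y axis, with exact 95% intervals) against the genomic span of each member with at least 50 UMIs (x axis, kb, log scale); colours give the family and black bars the median of all genes in each span bin. The bars fall from 0.02 below 10 kb to −1.05 above 100 kb, Dnajc13, Dnajc6 and Dnajc1 lie at the long end between −1.24 and −1.33, and Dnajb9 and Dnajb2 lie low at the short end.

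The second question was how the members vary over thymocyte development within each library. The summed levels of Hsp60-Hsp10, CCT and Hsp90 were highest in cycling-like and DN-like cells. Those of Hsp60-Hsp10 and Hsp90 were lowest in DP-like cells of both libraries, and CCT was lowest there in WT but about equal in DP-like (1221 CPM, 1184 to 1259) and mature SP-like cells (1199 CPM, 1122 to 1280) of Eif4g2 cKO, whereas class C J-proteins were highest in DP-like cells. In WT, the summed level of the Hsp60-Hsp10 pair was 206 CPM in DP-like, 390 in early post-selection-like, 493 in mature SP-like, 616 in DN-like and 742 in cycling-like cells. In Eif4g2 cKO the order was 306, 515, 566, 877 and 826 CPM, the last 2 with overlapping intervals (812 to 946 and 809 to 843). Hsp90 genes summed to 1094 CPM in DP-like and 3713 CPM in cycling-like WT cells and to 1290 and 3116 CPM in Eif4g2 cKO cells, whereas class C J-proteins summed to 3053 and 1823 CPM in WT and to 2460 and 1543 CPM in Eif4g2 cKO cells.

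**Figure D4:**
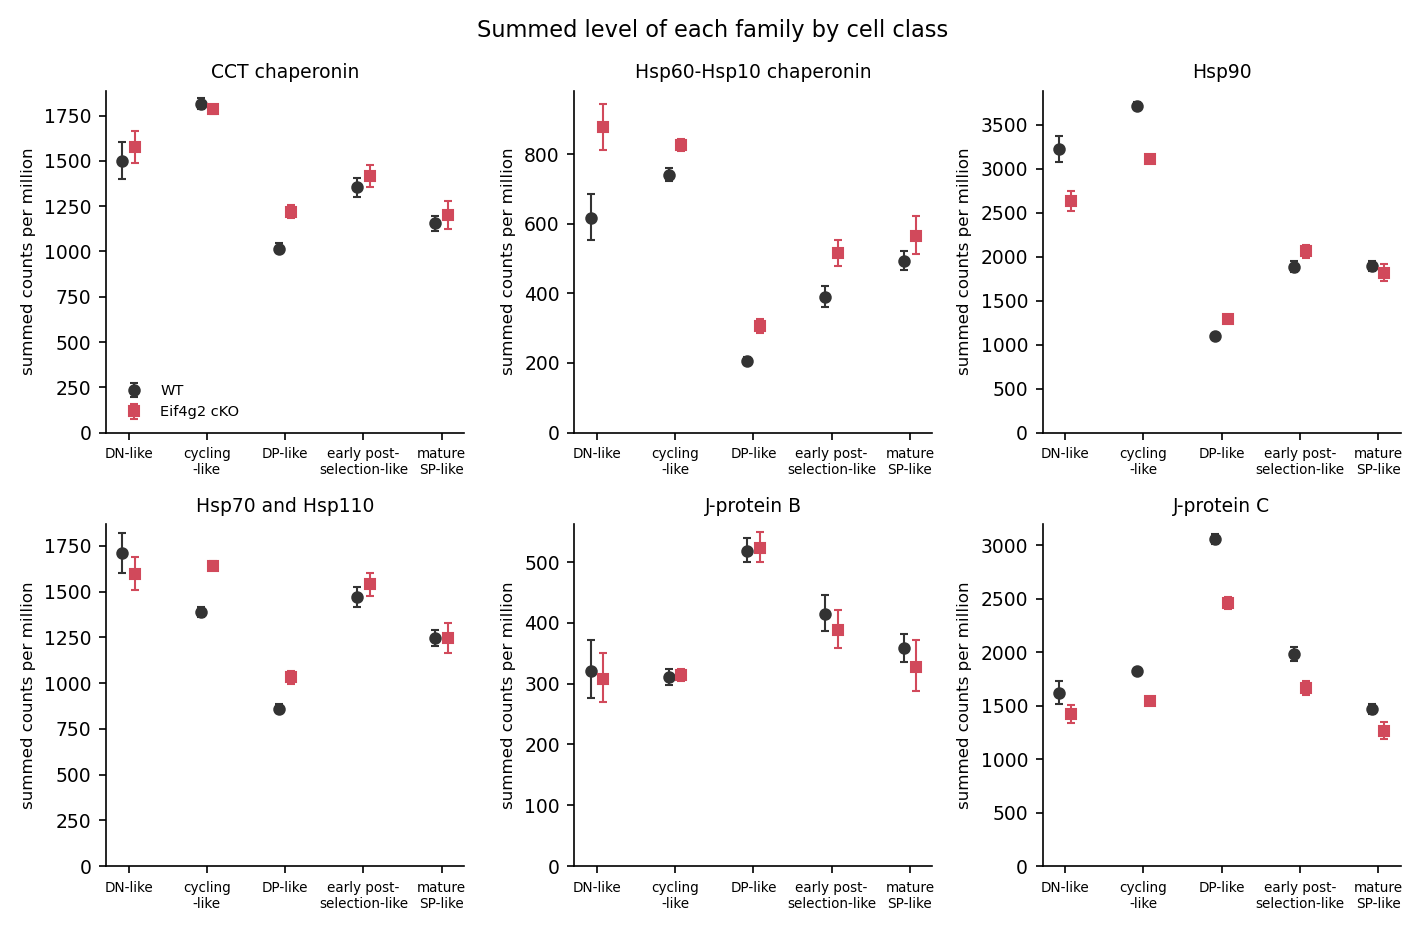
Summed level in CPM (linear axis, exact 95% Poisson intervals) in the 5 classes for WT and Eif4g2 cKO cells. The families shown are CCT, Hsp60-Hsp10, Hsp90, Hsp70 and Hsp110, and the J-proteins of classes B and C. The Hsp60-Hsp10 pair lies at 206 and 306 CPM in DP-like cells against 742 and 826 CPM in cycling-like cells, and class C J-proteins lie highest in DP-like cells, at 3053 and 2460 CPM.

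Between cycling-like and DP-like cells of the WT library 21 of 60 members were higher and 22 lower, against 17.3% and 53.2% of 9416 genes, with medians of −0.03 and −0.57. Of the 8 CCT genes 6 were higher, with a median of 0.96, led by Tcp1 (267 against 104 CPM, 1.37, 1.23 to 1.51). Hsp90aa1 had the largest ratio among the named members, at 772 against 163 CPM (2.24, 2.14 to 2.35), followed by Hspd1 at 215 against 51.8 CPM (2.05, 1.87 to 2.24) and Hspe1 (1.77). Dnajc9, the histone chaperone, was at 180 against 57.9 CPM (1.64, 1.46 to 1.82).

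In Eif4g2 cKO cells the same comparison gave 16 higher and 24 lower of 60, against 15% and 56.1% of 9115 genes, with medians of −0.25 and −0.65. There 4 of the 8 CCT genes were higher, with a median of 0.54, and the ratios were 0.93 for Tcp1, 1.75 for Hsp90aa1, 1.57 for Hspd1, 1.38 for Hspe1 and 1.65 for Dnajc9. Hsp90ab1 had 1.67 in WT against 1.17 in Eif4g2 cKO cells. The intervals of Tcp1, Hsp90aa1, Hspd1, Hspe1 and Hsp90ab1 in the 2 libraries did not overlap, while those of Dnajc9 did.

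The members that were lower in cycling-like than in DP-like cells were mostly J-proteins, but J-proteins were lower about as often as all genes. In WT 5 of 8 class B and 15 of 24 class C J-proteins were lower, against 53.2% of all genes. In Eif4g2 cKO 7 of 8 and 13 of 24 were lower, against 56.1%. None of the 3 class A J-proteins was lower in either library. Dnajc3 was at 282 against 701 CPM in WT (−1.31, −1.39 to −1.24) and at 133 against 519 CPM in Eif4g2 cKO cells (−1.96, −2.06 to −1.86). Dnajc15, a J-protein of the mitochondrial inner membrane, was at −1.08 and −0.89, and Dnajb1 at −1.03 and −0.95. Hspbap1 was at −2.03 and −2.02.

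Cells of the cycling-like class also held more RNA, with medians of 5340 and 6362 UMIs per cell against 1402 and 1354 in DP-like cells. Over T lineage cells of any class, the members took 7287 CPM in WT cells of 1000 to 2000 UMIs and 11625 CPM in those above 10000, and 7949 and 10872 CPM in Eif4g2 cKO cells. Without the cells above 10000 UMIs the median ratio of CCT genes between cycling-like and DP-like cells was 0.58 in WT against 0.30 in Eif4g2 cKO. Growth genes differed likewise, with 15 of 15 higher in WT cycling-like cells (median 1.64) and 14 of 15 in Eif4g2 cKO (1.44). The part of cell size and doublets was not tested.

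Mature SP-like cells were set against DP-like cells in the same way. In WT 11 of 58 members were higher and 22 lower, against 12.8% and 49.1% of 8878 genes, with medians of −0.20 and −0.48. In Eif4g2 cKO 6 of 52 were higher and 24 lower, against 7.97% and 52.5% of 7357 genes, with medians of −0.32 and −0.54. Hspe1 was at 412 against 154 CPM in WT (1.42, 1.28 to 1.55) and at 1.03 (0.84 to 1.21) in Eif4g2 cKO cells, and Hspa5 at 1.24 and 1.13. The CCT medians were 0.24 and −0.02. In WT 1 of 8 CCT genes was higher, Cct6a at 117 against 60.1 CPM, with a range of −0.23 to 0.96 over the 8. In Eif4g2 cKO none passed 0.5, with a range of −0.31 to 0.34.

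Dnajc15 and Dnajc3 marked the DP-like side of this comparison. Dnajc15 was at 158 CPM in mature SP-like and 632 CPM in DP-like WT cells (interval of the log2 ratio −2.15 to −1.85) and at −1.51 (−1.77 to −1.27) in Eif4g2 cKO cells. Dnajc3 was at −1.59 and −1.70. Hspb11, which differed between the libraries in each class, was also lower in mature SP-like than in DP-like cells, at −1.11 (−1.37 to −0.85) in WT and −1.24 (−1.60 to −0.89) in Eif4g2 cKO cells.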

How the data were processed

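Thymocytes of 1 WT and 1 Eif4g2 cKO mouse were profiled on the DNBelab C4 system. The authors ran dnbc4tools, for which the design text and the file headers give different versions, and deposited raw UMI counts per gene and barcode, unnormalized, with no barcode under 1000 UMIs; the submitters' processing notes name mm10. The oligo libraries have no values in the files used here. The members and gene lists were chosen with earlier results of these data known.

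Barcodes with at least 50 genes and at most 10% mitochondrial UMIs were kept (6012 and 4335), which is the filter stated in the study's methods. Each cell's counts were brought to a total of 10000 and logged, and 2000 variable genes without the members and Eif4g2 gave 30 components and 20 neighbours for Leiden clustering (resolution 1, seed 1; scanpy 1.11.5), first on all cells and then on T lineage cells. Both libraries were clustered together without integration. Clusters received an "X-like" name from fixed lists, for which 3 or more markers had to exceed the mean over clusters by 0.5 on the log2 scale. Doublets were neither called nor removed, and 264 WT and 419 Eif4g2 cKO barcodes exceeded 10000 UMIs.

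UMIs were summed per library and class and expressed as CPM, the intervals being exact Poisson ones; log2 ratios were given exact conditional binomial intervals (scipy 1.17.1). Where a library had 0 UMIs the limit is 3 UMIs. UMI counts come from the 3′ end and were compared between libraries or classes for the same gene, and sums over a family are sums of molecules. No test was run, since each genotype had 1 library. The calculation was tested on simulated counts.

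The named genes were all subunits of CCT and Hsp60-Hsp10, the main stress-inducible, cytosolic and organelle members with their J-proteins, the 10 members with the most UMIs, the 8 highest and 8 lowest ratios among members with at least 100 UMIs in 1 library, and members beyond 0.5 in the same direction in the DP-like, early post-selection-like and mature SP-like classes. Dnajb3, Hspa2, Dnajc25, Hspa4, Hspa4l, Dnajb6, Hspb6, Cct6b and Cct8l1 were named after their values were seen. Positions and spans came from GENCODE M21 (GRCm38), matched by identifier for 21816 of 21926 genes and 84 of 84 members.

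Alternatives changed the cell filter, clustering, scaling, weighting and UMI minimum. Those that used single clusters or gave the classes equal weight were chosen after seeing the data.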

Additional observations from a re-analysis of the deposited data

How the results depend on the processing

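Of 234 alternative values of the counts and medians, 197 stayed within 1.5 times the reported count or near the reported median, and 37 moved. A change of sign was looked for only in medians beyond 0.5, so it could not be recorded for counts or for the other medians. Some medians crossed zero. That of the members ran from −0.06 to 0.30 in T lineage and from −0.12 to 0.18 in cycling-like cells. In mature SP-like cells it ran from −0.13 to 0.22. Of the 24 values of named members beyond 0.5, 22 kept their sign under every alternative run; the exceptions were Hspbap1 in DP-like cells (0.14 in cluster 0 alone) and Dnajc6 in DP-like cells (0.23 in cluster 1 alone), and the cause was not tested. Without ribosomal protein, mitochondrial, haemoglobin and histone genes in the total, the members higher in Eif4g2 cKO were 9 in T lineage, 13 in DP-like and 10 in early post-selection-like cells, and the CCT ratio of cycling-like to DP-like cells was 1.17 in WT and 0.73 in Eif4g2 cKO. Centred on the median of all genes, the higher and lower members were 22 and 7 in T lineage (median 0.30), 8 and 8 in cycling-like (median 0.18) and 12 and 5 in early post-selection-like cells, with 15 higher in DP-like and 12 in mature SP-like cells. Counts of higher members are small, and they also moved with the cells: with 1000 to 10000 UMIs and at most 3% mitochondrial UMIs they were 3 in DN-like, 1 in cycling-like and 6 in early post-selection-like cells; without cells above 10000 UMIs 1 in cycling-like cells, with CCT ratios of 0.58 in WT and 0.30 in Eif4g2 cKO; and in early post-selection-like cells 5 with each library clustered alone and 6 with seed 2. With equal weight for each cell, 9 were higher in T lineage and 7 in early post-selection-like cells, and the WT CCT ratio was 0.76. A minimum of 20 UMIs gave 12 lower in DN-like and 5 higher in early post-selection-like cells. A minimum of 200 UMIs gave 2 higher in T lineage, 1 higher and 0 lower in DN-like, 1 higher and 8 lower in cycling-like, 3 lower in early post-selection-like and 4 lower in mature SP-like cells, since fewer genes were counted. Cycling-like cluster 4 alone, chosen after seeing the data, gave 0 higher and 8 lower members. The shares of all genes beyond 0.5 were not counted under any alternative, so these member counts have no background beside them.

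No paired analysis was possible because each genotype had 1 library. The depth limits the DN-like and mature SP-like classes most, where 36 and 48 members reached 50 UMIs, and intervals cover counting error in 2 mice that differ in sex-linked transcripts as well as genotype.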
